A study of Mus musculus with 2 samples.

Results

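Clca1-low mucous luminal cells are cells of the mouse cervix that held many transcripts of mucus genes, few of basal keratins and almost none of Clca1, the gene of a secreted mucus protein. They were chosen by their own counts of unique molecular identifiers (UMIs, each standing for 1 captured transcript). A member had at least 10 UMIs of Muc5b, Tff1 and Agr2 together, at most 1 UMI of Clca1, at most 10 of Krt5 and Krt14 together, and 0 of the macrophage genes C1qa, C1qb and C1qc. This rule found 584 of the 13981 cells that passed the cell filter, 35 of 4760 in the control library and 549 of 9221 in the progesterone library.

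The study compared cervix cells of ovariectomised female C57BL6/129 mice, 7 to 8 weeks old, in 2 single-cell libraries, each made from 9 pooled mice. All mice had lost their ovaries and recovered for 2 weeks, and the experiment lasted 15 days. Control mice were left untreated, and no vehicle or placebo pellet is given for them. Mice of the progesterone group were injected with estradiol (E2, 100 µg per day in corn oil) on 2 days. A pellet of 25 mg then supplied progesterone, at roughly 1 mg per day, from a 21-day formulation. Estradiol priming, injections, pellet and progesterone therefore cannot be told apart. With 1 library per group there was no test between the groups, and cells of a library are not replicates. Every bracket below is a 95% interval that covers counting error only, exact Poisson for a level, exact Clopper-Pearson for a share and exact conditional binomial for a ratio.

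The cervical canal is lined by epithelium in which columnar luminal cells meet stratified squamous cells. Mucous cells make gel-forming mucins such as Muc5b, which are folded in the endoplasmic reticulum with the help of Agr2, loaded with sugars in the Golgi and stored in granules until release. Trefoil peptides such as Tff1 are secreted along with the mucins, and Spdef is a transcription factor that drives the mucous programme in several epithelia. Progesterone and estradiol are known to alter the amount and the thickness of cervical mucus.

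The deposited files held 5368 control barcodes with 21658684 UMIs and 10853 progesterone barcodes with 44811069 UMIs. The cell filter, 200 or more genes with a mitochondrial share of 20% or less, removed 11.3% and 15.0% of them. The libraries shared 19 barcodes, of which 0 were members. Progesterone members had a median of 5322 UMIs and 1958 genes per cell, and control members a median of 3204 UMIs. In sum the members held 2883293 UMIs with progesterone and 133780 in the control library. The limit that a count of 0 allows (3 counts) was thus 1.04 CPM in the first and 22.4 CPM in the second. CPM is a gene's summed UMIs over all cells of a group, scaled so that each group's UMIs add up to 1000000. All levels below are in this unit, and they are compared within a gene and not between genes.

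Members made up 0.735% [0.513 to 1.02] of control cells and 5.95% [5.48 to 6.46] of progesterone cells. The progesterone members carried a lowest, median and highest sum of 10, 100 and 739 UMIs of the mucus genes, and 426 of the 549 had no Clca1 UMI. The control members carried 16, 105 and 1315, and 29 of the 35 had no Clca1 UMI. Clca1-high mucous cells met the same limits but had at least 2 Clca1 UMIs, and there were 18 of them in the control and 810 in the progesterone library. Squamous cells had at least 11 UMIs of Krt5 and Krt14 and at most 2 of the mucus genes, and numbered 2913 and 4704.

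The values that chose the members are descriptions of the rule. Muc5b stood at 12019.9 CPM in progesterone members and 8155 in control members, Agr2 at 7303 and 9620, and Clca1 at 42.7 and 44.9 CPM. Tff1 stood at 8802 CPM with progesterone and 20706 in the control members, where 1 cell held 947 of its 2770 UMIs. In squamous cells of the progesterone library Muc5b was read at 37.9 CPM, Tff1 at 30.6 and Agr2 at 22.2. The corresponding levels in control squamous cells were 1.95, 3.03 and 2.29 CPM. Squamous cells of both libraries were chosen with at most 2 UMIs of these genes together. Within that cap, those of the progesterone library carried more of them. The gene Muc5b lies at chr7:141839070-141873084 (plus strand), Agr2 at chr12:35992907-36004087 (plus) and Clca1 at chr3:145003817-145032776 (minus), in build GRCm38. Reads were counted per gene, so exons and untranslated regions are not told apart.

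Cells just outside each limit of the rule also carried Spdef. The values are summed levels of neighbouring bands, so they cannot show whether the cells form a continuous range or separate groups. Progesterone members with exactly 1 Clca1 UMI (123 cells) had 454 CPM of Spdef, 656 of Dapl1 and 153 of Ltf. The 66 cells just outside, with 2 Clca1 UMIs, had 460, 542 and 308 CPM. Members with a mucus sum of 10 to 12 (29 cells) had 176 CPM of Spdef and 416 of Tspan1, and the 29 cells with a sum of 8 to 9 had 156 and 519. Members with 9 to 10 keratin UMIs (24 cells) had 625 CPM of Spdef, and the 26 cells with 11 to 12 had 402. A further 52 progesterone cells missed the rule through a C1q UMI alone and had 506 CPM of Spdef. Another 172 cells had 10 or more mucus UMIs but at least 11 keratin UMIs, and their Spdef level was 343 CPM. Their median depth was 7905.5 UMIs, against 5322 in members.

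Of the given markers, 4 were not read by the rule. They were chosen with earlier results of these data known, so their levels describe the members. They are no independent check of the label. Spdef (chr17:27714352-27728955, minus strand) stood at 522 CPM [496 to 549] in progesterone members, 553 [434 to 694] in control members and 10.6 [9.33 to 11.9] in progesterone squamous cells. Serpinb11, a clade B serpin gene (chr1:107361198-107380475, plus), was at 1235 CPM in progesterone members, 1615 in control members and 52.3 in squamous cells. Tspan1, a tetraspanin (chr4:116161869-116167601, minus), was at 1258, 2190 and 25.8 CPM. Of these markers, the levels in both sets of members lay far above the squamous ones. Chad, the gene of the matrix protein chondroadherin (chr11:94565047-94569127, plus), stood at 446 CPM [422 to 471] in progesterone members and had 79 UMIs in all 4704 squamous cells. In the control members it rested on 11 UMIs, 5 of them from 1 cell, which is 82.2 CPM [41.0 to 147]. Over squamous cells of the same library, which the rule had set apart, the ratios in progesterone members were 49.5 for Spdef, 23.6 for Serpinb11, 48.8 for Tspan1 and 144 for Chad.

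**Figure D1:**
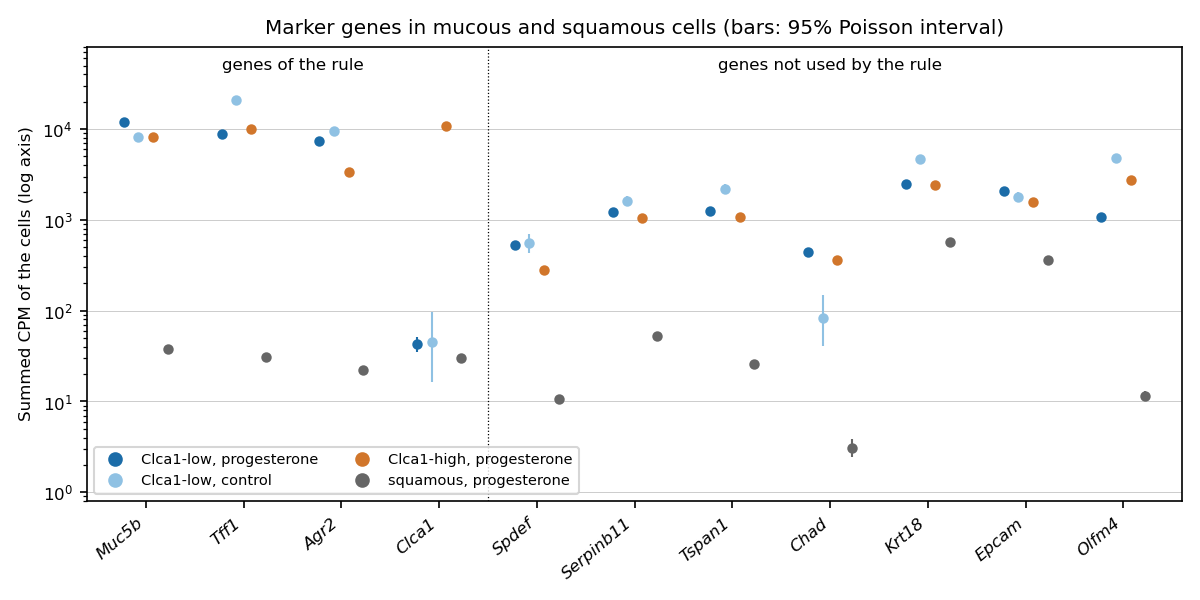
Summed CPM (log axis) of the rule's genes, left of the dotted line, and of markers the rule did not use, in Clca1-low cells of both libraries and in Clca1-high and squamous cells of the progesterone library; points are levels and bars 95% Poisson intervals. Spdef, Serpinb11, Tspan1 and Chad sit above the squamous points in both sets of Clca1-low cells, with Chad at 446 CPM in the progesterone and 82.2 in the control library.

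Shares of cells with a UMI were compared after thinning each cell to 2000 UMIs, which kept 486 progesterone members and left out 63 shallower ones. Spdef was then read in 61.9% [57.5 to 66.3] of progesterone members (80.0% unthinned) against 1.75% of squamous cells. Serpinb11 was read in 84.0% (89.3% unthinned) against 6.50%, Tspan1 in 85.8% (88.5%) against 3.03%, and Chad in 51.9% [47.3 to 56.4] (69.2%) against 0.629%. Median depths before thinning were 5322 UMIs in members and 4989.5 in squamous cells. The luminal keratin Krt18 was read in 98.6% of thinned members and in 58.6% of squamous cells. Without thinning, 533 of the 549 progesterone members (97.1%) held at least 3 UMIs of the 7 luminal epithelium markers, but so did 3749 of the 4704 squamous cells (79.7%). The summed level of these markers was 6505 CPM in members and 1515 in squamous cells.

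Markers of other cells were read at the following summed levels in progesterone members. The basal squamous markers apart from Krt5 and Krt14 summed to 483 CPM, against 3904 in squamous cells. Neutrophil markers summed to 74.6 CPM, with 47.0% of it from 1 cell, and smooth muscle markers to 69.7 CPM, with 92.0% from 1 cell. Haemoglobin genes summed to 1136 CPM, with 30.4% from 1 cell. Macrophage markers other than C1q summed to 8.67 CPM, fibroblast markers to 4.86 CPM, and all 5 B and plasma cell markers were at 0. Of the tuft cell markers Avil alone was read, with Dclk1, Trpm5 and Pou2f3 at 0. Of the 6 ciliated cell markers 4 were at 0, among them Foxj1, while Rsph1 and Ccdc153 held 8 UMIs in sum. The uterine gland markers Spink1 and Calb1 were at 0 too, while Cxcl15 and Foxa2, which are on the same list, were read at 305 and 113 CPM. Prap1, also on that list, was read at a level at least 2-fold below that of squamous cells.

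Against squamous cells of the same library, the progesterone members showed the machinery of mucus production at high levels and basal, proliferation and squamous genes at low ones. A gene is written as higher or lower below where its ratio of summed CPM was at least 2-fold, the interval of the ratio lay on 1 side of 1, and both sums together held at least 20 UMIs. Of 12590 genes with that many UMIs, 1949 (15.5%) were higher and 1320 (10.5%) lower in members. The rule itself set these cells apart, so the counts describe the contrast, and no list below can be read against them as support. The split also moved with the scaling. Mitochondrial, ribosomal protein and the 20 most abundant genes held 43.7% of the members' UMIs and 55.1% of those of squamous cells, and without them 1354 genes were higher and 2093 lower. The median log2 ratio of all genes was then -0.21 in place of 0.11.

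Mucus assembly genes were higher in members for 14 of the 15 measured, and 0 were lower. The median log2 ratio of the list was 4.71, against 0.11 over all genes. Fcgbp, the gene of a mucus protein that binds the Fc part of IgG, stood at 696 CPM in progesterone members and 14.8 in squamous cells, a ratio of 47.1 [42.1 to 52.7]. Galnt6 (569 CPM), Galnt12 (369 CPM) and Galnt7 (298 CPM) encode transferases that put the first sugar on mucins, and stood at 21.3, 17.4 and 15.7 CPM in squamous cells. C1galt1, which extends that sugar, was 7.98-fold higher. The gel-forming mucin Muc5ac was at 38.5 CPM against 0.471. Ern2, a stress sensor of mucous epithelia, stood at 136 CPM in members and 2.67 in squamous cells. Gcnt1, a branching enzyme, was the measured gene that was not higher, at 6.94 CPM against 13.0.

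Secretory transcription factors were higher for 9 of 13 measured genes and lower for 0, with a median log2 ratio of 2.09. Besides Spdef, Creb3l4 stood at 219 CPM in members and 6.91 in squamous cells. Its relative Creb3l1, which activates genes of the secretory pathway, was at 133 CPM against 0.864, a ratio of 154 [100 to 248] that rested on 22 squamous UMIs. Ehf (ratio 2.99) and Klf4 (2.30), regulators of epithelial differentiation, were higher by smaller factors, and Foxa3 was 96.8 times the squamous level. Klf5 was at 139 CPM in members and 151 in squamous cells, and Elf3 and Pax8 had ratios of 1.63 and 1.21.

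Genes for folding and export through the endoplasmic reticulum were higher for 24 of 25, with a median log2 ratio of 2.02. Sec61b, part of the channel through which new proteins enter, was at 1055 CPM in members and 275 in squamous cells, and Ssr4, a subunit bound to that channel, at 1476 and 338. The chaperone Calr was at 1085 CPM against 209, and the disulfide isomerase Pdia3 at 955 against 190. Kdelr3, a receptor that returns resident proteins from the Golgi, had a ratio of 80.9 [45.5 to 156], resting on 13 squamous UMIs. Canx, at 285 CPM against 165, was the member of the list that did not reach 2-fold.

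Luminal keratins and junction genes were higher for 11 of 17 and lower for 0. Krt18 stood at 2464 CPM in progesterone members and 569 in squamous cells, Krt8 at 639.9 and 114, and Epcam, an adhesion protein of simple epithelia, at 2079 and 365. Claudin 3 (Cldn3) had a ratio of 15.4 [13.6 to 17.5]. Krt7, which is also a luminal keratin, was at 189 CPM in members and 298 in squamous cells.

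Transport genes were higher for 9 of 16 and lower for 2. Slc12a2, the cotransporter that loads chloride for secretion, stood at 1231 CPM in members and 79.3 in squamous cells. The chloride channel Cftr was at 52.4 CPM against 0.864, the pump subunit Atp1b1 at 245 against 56.0 and the water channel Aqp5 at 174 against 34.6. Another water channel, Aqp3, was lower in members (6.59 CPM against 47.2), and the carbonic anhydrase gene Car12 was at 283 and 208 CPM. Transmembrane mucins were higher for 3 of 5 measured genes: Muc20 (ratio 41.5), Muc13 (4.00) and Muc1 (3.58). Muc15 was lower, a ratio of 0.285 [0.0577 to 0.859] with 3 UMIs in members.

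Mucosal defence genes were higher for 8 of 12 and lower for 3. Wfdc18 and Wfdc2, whey acidic protein genes, stood at 3659 and 4533 CPM in members and at 85.6 and 983 in squamous cells. Cxcl17, a mucosal chemokine, was at 187 CPM against 9.54, and Pigr, the receptor that carries IgA across epithelium, at 87.4 against 8.32. Ltf, the iron-binding lactoferrin, was lower in members at 110 CPM against 221, and Lcn2, another iron-related defence protein, at 10.1 against 122. In squamous cells 781 of the 5630 Ltf UMIs came from 1 cell, and 809 of the 3113 Lcn2 UMIs. Neutrophil markers were lower in members for 5 of 6, at 74.6 CPM in sum against 222, and their part in the lower genes was not tested.

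Steroid receptor genes were higher for 2 of 7. Pgr, the progesterone receptor, stood at 119 CPM [107 to 132] in progesterone members and 52.1 in squamous cells, and Nr3c2, the mineralocorticoid receptor, at 7.63 and 2.08. The estrogen receptor Esr1 was at 173 CPM and 158, a ratio of 1.10. Estrogen response genes were higher for 3 of 11 and lower for 6. Padi1 was at 528 CPM against 79.2, while Greb1, a cofactor induced by the estrogen receptor, was at 2.08 against 34.9 and Wnt4 at 10.4 against 194. Of 11 progesterone and glucocorticoid response genes 0 were higher and 2 lower. Sgk1, a kinase of that list, was at 131 CPM against 68.9, a ratio of 1.90, and Klf15 had 0 UMIs in members against 161 in squamous cells, at least 6.07-fold lower.

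Progenitor genes were higher for 4 of 7 and lower for 1. Olfm4, the secreted glycoprotein that the series asks about (chr14:79984081-80023139, plus strand), stood at 1066 CPM in progesterone members and 11.5 in squamous cells, a ratio of 92.4 [82.0 to 105]. Sox9 was at 42.7 CPM against 10.1 and the receptor regulator Lrig1 at 32.6 against 6.59. Lgr6, a stem cell receptor of skin, had 0 UMIs in members and 162 in squamous cells, at least 6.11-fold lower.

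Proliferation genes were lower in members for 15 of 16 and higher for 0, with a median log2 ratio of -2.50. Mki67 stood at 6.59 CPM against 54.2, and 11 of its 19 UMIs in members came from 1 cell. Top2a, which untangles chromosomes, was at 5.90 CPM against 58.2, and the chromatin protein Hmgb2 at 80.8 against 186. After thinning, Mki67 was read in 0.412% [0.0499 to 1.48] of members (0.911% unthinned) and 4.29% of squamous cells (7.14%). The thymidylate synthase gene Tyms was the exception, at 29.8 CPM and 47.9. The median of the list moved to -3.55 with called doublets left out and to -1.26 with each cell's counts scaled before the limits of the rule.

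Squamous differentiation genes were lower for 14 of 19 and higher for 1, with a median log2 ratio of -2.29. Trp63, the transcription factor of basal cells, stood at 11.8 CPM in members and 174 in squamous cells, Sfn at 219 and 579, and Krtdap at 12.8 and 243. Sprr1a, a cornified envelope precursor, was the gene of the list that was higher, at 563 CPM against 219. Perp, a desmosome protein, was at 863 and 1017 CPM, and the mucosal keratin Krt13 at 595 and 1032. All 5 basal markers that the rule did not use were lower, with Krt15 at 335 CPM against 2908 and the hemidesmosome collagen Col17a1 at 62.4 against 277.

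Among all genes outside the rule, the 10 ranked highest over squamous cells by the lower bound of the ratio were Scgb3a1, Avil, Cxcl15, Tspan13, 4933407L21Rik, Chad, Cldn22, Cgref1, Ces1f and Pdzrn4. The secretoglobin gene Scgb3a1 had a ratio of 495 [166 to 2424], with 61 of its 168 UMIs in members from 1 cell, and its log2 ratio of 8.73 lay between 7.87 and 9.70 over the alternatives. Avil, which encodes the actin-binding protein advillin, was 236 [141 to 425] times the squamous level, the chemokine gene Cxcl15 181 times and the tetraspanin Tspan13 156 times. Their levels in members were 139 CPM for Avil, 305 for Cxcl15 and 349 for Tspan13. The claudin Cldn22 stood at 225 CPM against 1.41. All 10 were close to absent from squamous cells, with 3 to 79 UMIs in sum.

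The 10 ranked lowest were Apoe, Lgals7, Ptprz1, Ptn, Cdh13, Krt17, Il1r2, Jag2, 4631405K08Rik and Bcam. Apoe, the lipid carrier, was 39.3-fold lower [33.6 to 46.2], with 55.1 CPM in members and 2165 in squamous cells. Lgals7, the galectin of stratified epithelium, was 26.1-fold lower. The growth factor gene Ptn was 32.7-fold lower and the Notch ligand Jag2 42.6-fold. Ptprz1, the gene of a receptor for Ptn, was 45.5-fold lower, but had 7 UMIs in members. Its log2 ratio of -5.41 was -6.96 with called doublets left out, -7.09 with each cell's counts scaled, -8.12 with at most 2 keratin UMIs and -9.11 with at most 10% mitochondrial UMIs. Krt17 was 27.0-fold lower, with 20 of the 57 UMIs in members from 1 cell.

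**Figure D2:**
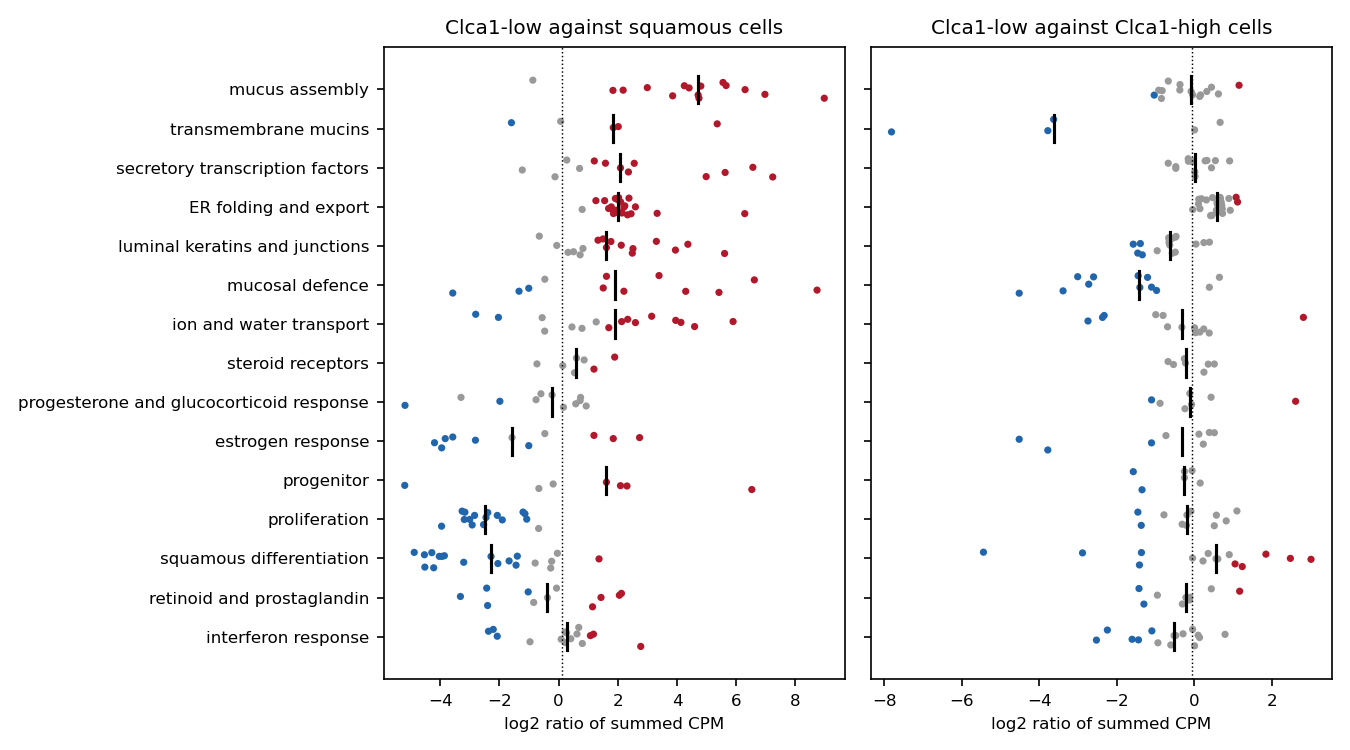
Each point is a measured gene of a list, placed by the log2 ratio of its summed CPM in progesterone Clca1-low cells over squamous cells (left) or Clca1-high cells (right); red points were at least 2-fold higher, blue at least 2-fold lower with intervals on 1 side of 1, grey neither, black bars are list medians and the dotted line the median of all genes. Mucus assembly genes (median 4.71) and proliferation genes (-2.50) lie on opposite sides on the left, while on the right transmembrane mucins (-3.63) and mucosal defence (-1.43) lie low.

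Clca1-high cells are the mucous cells that the rule separated from the members by Clca1 alone. In the progesterone library their median mucus sum was 46 UMIs, against 100 in members. Their median Agr2 count was 7 UMIs, against 24. The part of mucus content in the differences below was not tested. Clca1-high cells shared the markers. Spdef stood at 522 CPM in members and 278 in Clca1-high cells, a ratio of 1.88 [1.73 to 2.04]. The ratios of Serpinb11, Tspan1, Chad, Krt18 and the folding regulator Xbp1 were between 1.01 and 1.23. Of 10395 genes with enough UMIs, 233 (2.24%) were higher in members and 538 (5.18%) lower. With a floor of 100 UMIs the counts were 83 and 210. The median log2 ratio of all genes was -0.06.

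Mucosal defence genes were lower in members than in Clca1-high cells for 10 of 12 and higher for 0, with a median log2 ratio of -1.43. That median was -2.03 with a floor of 100 UMIs. Neutrophil markers were lower too, for 5 of 5, at 74.6 CPM in sum against 209, with 47.0% and 25.9% of it from 1 cell. Neutrophils also express Ltf and Lyz2. With mucous cells of over 5 S100a8 and S100a9 UMIs left out, 521 genes were lower in place of 538. The median of the defence list then moved by less than 1.5-fold. The part of neutrophil RNA in single genes such as Ltf was not tested. Ltf was 23.0-fold lower [20.6 to 25.8], at 110 CPM in members and 2521 in Clca1-high cells. Pigr was 8.08-fold lower (87.4 CPM against 706). Gp2, a glycoprotein that binds bacteria, stood at 97.8 CPM against 595, and Wfdc2 at 4533 against 10469. Wfdc18 was not among the lower genes, at 3659 CPM against 2336. After thinning, Ltf was read in 13.4% of members (26.2% unthinned), 61.1% of Clca1-high cells and 4.36% of squamous cells. For Pigr these shares were 10.5% (18.4% unthinned), 65.4% and 0.809%, from median depths of 5322, 4427.5 and 4989.5 UMIs.

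Transmembrane mucins were lower for 3 of 5 measured genes and higher for 0. The list median of -3.63 was -1.81 with a floor of 1 UMI. Muc1 was 13.9-fold lower [10.8 to 18.1], at 22.2 CPM against 308. Its log2 ratio of -3.78 was -3.13 with a mucus sum of at least 5 and -3.09 with at most 2 keratin UMIs. Muc4 had 10 UMIs (3.47 CPM) against 164. Muc16 had 0 UMIs in the 549 members and 142 in Clca1-high cells, at least 37.5-fold lower. Muc20 and Muc13 had ratios of 1.00 and 1.59. Fcgbp was the mucus assembly gene that was lower (696 CPM against 1428), and C1galt1 the one that was higher, 2.23-fold.

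The other genes ranked lowest against Clca1-high cells were Cpm, Hbb-bt, Upk1a, Rep15, Clu, Cfb and Camk2n1, beside Ltf, Muc1 and Pigr. The carboxypeptidase gene Cpm had 3 UMIs in members and 184 in Clca1-high cells, 48.5-fold lower [16.4 to 238]. Upk1a, a uroplakin of apical membranes, was 13.1-fold lower, the secreted chaperone Clu 10.7-fold and the complement factor Cfb 9.79-fold. The haemoglobin gene Hbb-bt was 18.9-fold lower. With the 10 members and 14 Clca1-high cells that held over 5 haemoglobin UMIs left out, which was chosen after seeing the data, its log2 ratio was 0.016 in place of -4.23, and with a mucus sum of at least 5 it was -0.82.

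The genes ranked highest against Clca1-high cells were Timp3, Eaf2, Dapl1, Ntrk2, Cd200, Dmkn, Fkbp11, Fgfbp1, Nucb2 and Lypd3. Dapl1 (chr2:59484653-59505020, plus strand), which is related to a death-associated protein, stood at 887 CPM in members, 208 in Clca1-high and 460 in squamous cells, a ratio over Clca1-high cells of 4.26 [3.93 to 4.63]. Ntrk2 (chr13:58806569-59133970, plus strand), the receptor for brain-derived neurotrophic factor, was at 217, 47.8 and 126 CPM. Timp3, a metalloproteinase inhibitor, was at 116, 21.1 and 72.7 CPM. For these genes the squamous level lay between both mucous levels. Eaf2, an elongation factor partner, was at 208 CPM in members and 42.3 in Clca1-high cells but only 3.81 in squamous cells. Fkbp11, a prolyl isomerase of the endoplasmic reticulum, was at 161, 41.2 and 37.0 CPM. Cd200 and Dmkn, at 58.3 and 68.0 CPM in members, were higher still in squamous cells, at 118 and 405. Thinned shares of cells with a Dapl1 UMI were 69.8% of members (80.0% unthinned), 24.5% of Clca1-high cells and 45.2% of squamous cells.

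Squamous differentiation genes were split in this comparison, with 5 of 15 higher in members and 4 lower. Krtdap (12.8 CPM against 2.20), Spink5 (43.0 against 5.22), Dsc3 (26.0 against 7.14), Trp63 (11.8 against 4.94) and Dsg3 (29.1 against 14.0) were higher. Of these 5 all but Dsg3, at 35.3 CPM in squamous cells, were lower in members than in squamous cells. The lower ones were the keratins Krt13 (595 CPM against 1591), Krt4 and Krt1 and the surface protein Psca (4.86 against 37.1). The basal collagen Col17a1 was 3.73-fold higher [2.77 to 5.07]. The rule allowed up to 10 UMIs of Krt5 and Krt14 in both mucous groups, and the medians were 3 in members and 1 in Clca1-high cells.

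Other lists differed less. Folding and export genes were higher in members for 2 of 25, Kdelr3 (ratio 2.12) and Sdf2l1 (2.17), with a list median of 0.59. Secretory transcription factors were higher for 0 and lower for 0 of 13, and steroid receptors for 0 and 0 of 7, with Esr1 at a ratio of 0.836 [0.745 to 0.937] and Pgr at 1.43. Progenitor genes were lower for 2 of 6. Olfm4 was one, at 1066 CPM in members and 2720 in Clca1-high cells, and Prom1, an apical protrusion protein, the other, at 42.3 and 127. Luminal keratins and junction genes were lower for 4 of 17, among them Tspan8, Cldn8 and Prom1. Of 7 progesterone and glucocorticoid response genes the chaperone cofactor Fkbp5 was higher (10.8 CPM against 1.65) and Sgk1 lower (131 against 282).

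Cells were then placed in 7 bins by their number of Clca1 UMIs, from 0 to 51 and more, of which the bins of 0 and 1 are the members. The levels of several genes shifted along the bins on both sides of the limit of the rule, and not at that limit alone. Dapl1 went from 947 CPM at 0 Clca1 UMIs over 656, 542, 474, 288 and 156 to 72.0 CPM. Ltf went the other way, from 98.2 CPM over 153, 308, 383, 942 and 2215 to 4396. Its step at the limit, from 1 to 2 Clca1 UMIs, was from 153 [124 to 188] to 308 CPM [249 to 375]. Pigr went from 155 [125 to 190] to 276 CPM [221 to 340] at the same step. Muc1 went from 15.3 to 373 CPM, Gp2 from 76.0 to 685 and Eaf2 from 220.5 to 17.1. Pigr was at 69.9 CPM at 0 Clca1 UMIs and highest, at 903, in cells with 16 to 50. Krt18 stayed between 2347 and 2511 CPM in all bins, and Esr1 between 166 and 234. Median depth per bin was between 3181 and 5365 UMIs and was 5350 and 5365 in the first and the last bin. Dapl1, Eaf2, Ltf, Pigr and Muc1 were among the genes ranked highest or lowest between members and Clca1-high cells. A difference between low and high bins was therefore set by that choice. The bins were chosen with earlier results of these data known and took each cell's Clca1 count without its counting error. The shift has no test.

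**Figure D3:**
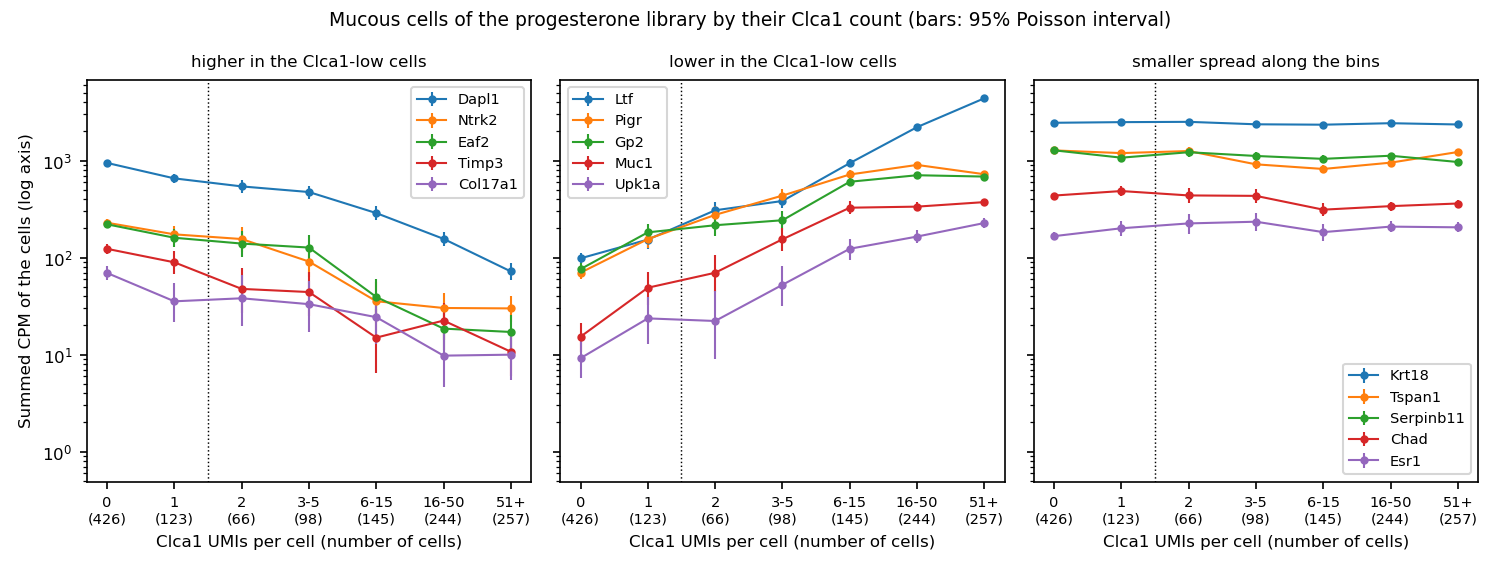
Summed CPM (log axis) of progesterone mucous cells in bins of their Clca1 UMI count (horizontal axis, number of cells in brackets), with 95% Poisson intervals; bins left of the dotted line are the Clca1-low cells. Dapl1 (947 to 72.0 CPM) and Ltf (98.2 to 4396) shift across the limit in steps, while Krt18 stays between 2347 and 2511.

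Among themselves the progesterone members ranged widely in mucus content. In cells with a mucus sum of 10 to 19 (62 cells, median depth 1558 UMIs) Muc5b stood at 2418 CPM, and in cells with 200 or more (141 cells, median depth 7565) at 17723. Agr2 went from 1312 to 11117 CPM over the same bins, and Tff1 was at 1805, 1476, 2217, 4957 and 18636 CPM. The bins were made from these 3 genes, so their levels describe the bins alone. Genes outside the rule were read in the same bins. Tspan1 went from 446 to 1706 CPM, Wfdc18 from 1126 to 6565 with a low of 671 in the second bin, and Cgref1 from 13.3 to 225. Krt18 stayed between 2218 and 2633 CPM, and Spdef stood at 320 CPM in the first bin and between 432 and 575 in the others. Depth per cell moved with the mucus sum, and its part in these differences was not tested.

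Several genes were higher where the mucus sum was small. Krt13 stood at 1346 CPM in the first bin and 370 in the last, Pigr at 326 and 54.2, and Muc1 at 86.6 and 7.61. Krt5, which the rule itself limits, was at 826 and 266 CPM. Timp3 was highest in cells with a sum of 20 to 49, at 244 CPM, and lowest in those with 200 or more, at 37.1. The haemoglobin gene Hbb-bs was at 3331, 358, 2081, 42.0 and 36.2 CPM in the 5 bins, and 704 of its 1809 UMIs came from 1 cell. The part of depth and of haemoglobin RNA in the other values was not tested.

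**Figure D4:**
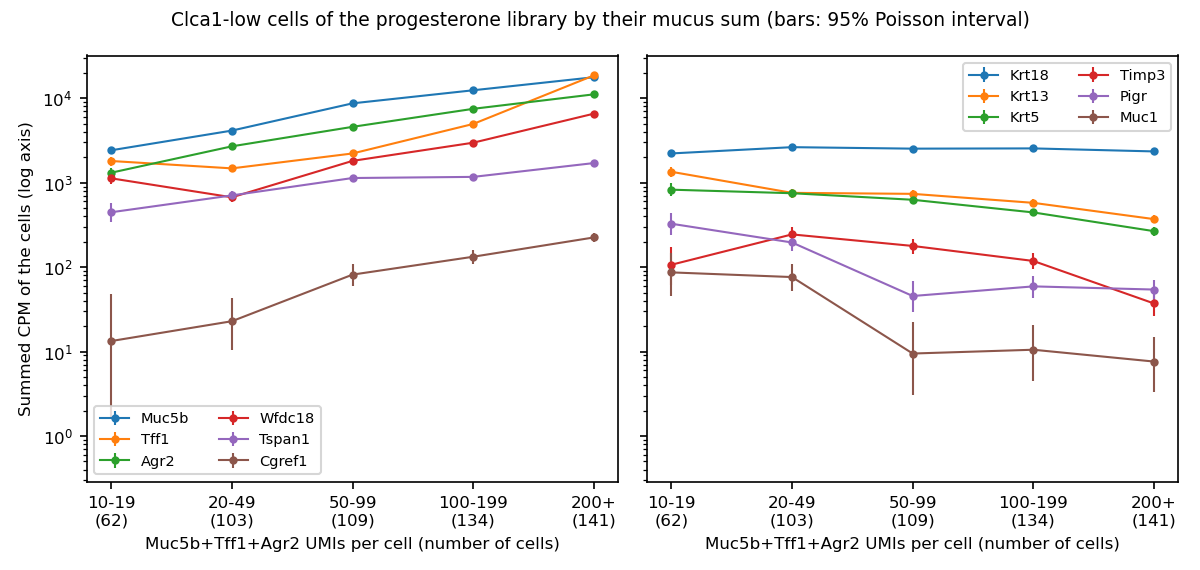
Summed CPM (log axis) of progesterone Clca1-low cells in bins of their summed Muc5b, Tff1 and Agr2 UMIs (horizontal axis, number of cells in brackets), with 95% Poisson intervals. Tspan1 and Cgref1 lie higher in the bins rich in mucus (446 to 1706 and 13.3 to 225 CPM), Krt13, Pigr and Muc1 lie lower, and Krt18 stays between 2218 and 2633.

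The mucus sum was carried by different genes in different members. Muc5b gave the most UMIs in 331 cells (60.3%), Tff1 in 120 (21.9%) and Agr2 in 98 (17.9%). Cells led by Agr2 had 1315 CPM of Dapl1, against 771 in cells led by Muc5b and 755 in those led by Tff1. Krt13 was at 912, 518 and 478 CPM in the same order, and Pigr at 23.7, 128 and 46.5. Cells led by Tff1 had 5874 CPM of Wfdc18, against 3071 and 2990 in those led by Muc5b and Agr2. The median depth was 6715.5 UMIs in cells led by Agr2, 4731 in those led by Muc5b and 6120.5 in those led by Tff1.

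Olfm4 was unevenly spread over the members. In the progesterone library 350 of the 549 (63.8%) had no Olfm4 UMI, 83 had 1 to 4 and 116 had 5 or more. Spdef was alike in these sets, at 535, 520 and 486 CPM, and Krt18 at 2488, 2433 and 2410. Pigr stood at 44.5 CPM in cells without Olfm4 and 221 in those with 5 or more UMIs, Gp2 at 58.5 and 193, and Muc1 at 9.66 and 65.8. Timp3 was at 148 CPM in the first set and 34.5 in the last, and Krt13 at 662 and 393. Median depths were 5356.5, 4344 and 5571.5 UMIs. Thinned to 2000 UMIs, 29.2% [25.2 to 33.5] of progesterone members had an Olfm4 UMI (36.2% unthinned), against 73.7% of Clca1-high and 1.60% of squamous cells.

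Between the libraries the comparison rests on 35 control members, too few to count genes, so levels and their intervals are given side by side with those of squamous cells. The genes below were chosen after their values were seen. Spdef stood at 553 CPM [434 to 694] in control and 522 [496 to 549] with progesterone, while Epcam stood at 1772 [1553 to 2012] and 2079 [2027 to 2133]. Ern2 was at 232 CPM [157 to 329] and 136 [123 to 150]. In squamous cells Spdef was at 3.84 CPM in the control and 10.6 in the progesterone library, and Ern2 at 0.687 and 2.67, so both lay above the squamous level in the members of each library.

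The luminal keratins Krt8, Krt18, Krt19 and Krt7 and the mucosal keratin Krt13 were read at higher levels in control members. Krt4, the other mucosal keratin, had 0 UMIs in control members, with an upper bound of 27.6 CPM, and 1 in progesterone members. Krt8 stood at 4904 CPM [4535 to 5294] in control members and 639.9 [611 to 669.8] in progesterone members. In squamous cells it was at 108 and 114 CPM. Krt18 was at 4657 and 2464 CPM in members and 159 and 569 in squamous cells, so the order in members was the opposite of that in squamous cells. Krt19 was at 1757 and 563 CPM in members, Krt7 at 1271 and 189, and Krt13 at 6810 [6375 to 7267] and 595 [568 to 624]. Krt13 in squamous cells was at 1425 CPM in the control and 1032 in the progesterone library. The order was not confined to the members. Clca1-high cells had 5518 CPM of Krt8 in the control library, from 18 cells, and 1002 with progesterone. Their Krt18 levels were 4336 and 2392 CPM, and their Krt13 levels 7019 and 1591. The 7 luminal epithelium markers summed to 15884 and 6505 CPM in members, 16372 and 6935 in Clca1-high cells and 13192 and 7928 in other luminal cells. The last were 60 and 116 cells chosen by 10 or more UMIs of Krt8 and Krt18, with at most 10 of Krt5 and Krt14 and at most 2 of the mucus genes. Krt8 and Krt18 are among the 7 markers, so the sums in other luminal cells partly describe that choice. Median depths of these cells were 4582.5 UMIs in the control and 5723 in the progesterone library.

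Several genes outside the keratins had the same order, although defence genes went both ways, with Ltf read at the higher level in control members and Wfdc18 and Gp2 in progesterone members. Psca stood at 2938 CPM [2654 to 3243] in control members and 4.86 [2.65 to 8.15] in progesterone members. After thinning, Psca was read in 67.9% [47.6 to 84.1] of control members (74.3% unthinned) and 0.412% of progesterone members (2.55%), and in 6.98% and 1.24% of squamous cells. In squamous cells Psca was at 333 and 98.1 CPM, with 1034 of 2499 UMIs from 1 cell in the progesterone library. Ltf was at 9254 CPM in control and 110 in progesterone members, and in squamous cells at 1689 and 221. The order of Ltf was not confined to the members. Cells with a mucus sum of 3 to 9 and at most 1 Clca1 UMI had 20382 CPM in the control library (14 cells). With progesterone such cells had 516 CPM (190 cells). Sprr1a was at 7849 and 563 CPM in members and 1373 and 219 in squamous cells. Muc16 had 44 UMIs in the 35 control members (329 CPM [239 to 442]) and 0 in the 549 progesterone members, and its squamous levels were 0.172 and 0.157 CPM. Olfm4 was at 4747 CPM [4385 to 5131] in control members and 1066 [1029 to 1105] in progesterone members. Its squamous levels were 28.0 and 11.5 CPM, and it was read in 82.1% [63.1 to 93.9] of the 28 control members kept by thinning (77.1% unthinned). In the cells with a mucus sum of 3 to 9 Olfm4 was at 915 CPM in the control and 684 in the progesterone library. For the other genes of this paragraph, luminal cells outside the members were not set beside them. Control members also carried 830 CPM of neutrophil markers, 64.0% of it from 1 cell, and the part of such cells in these values was not tested.

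A number of other genes had the opposite order. Slc12a2 was at 74.8 CPM [35.8 to 137] in control members and 1231 [1191 to 1272] in progesterone members, and in squamous cells at 35.7 and 79.3. Wfdc18 was at 419 CPM and 3659 in members, while squamous cells had the opposite order, at 864 and 85.6. Creb3l1, C1galt1 and Cldn10, a claudin that lets ions pass, each had 1 UMI in control members, a level of 7.47 CPM [0.189 to 41.7]. In progesterone members Creb3l1 stood at 133 CPM, C1galt1 at 168 and Cldn10 at 187. The squamous levels of C1galt1 were 20.3 CPM in the control and 21.0 in the progesterone library, those of Cldn10 2.46 and 74.4. Car12 was at 22.4 CPM [4.62 to 65.5] and 283 in members. Chad was at 82.2 CPM [41.0 to 147] and 446, and Gp2 had 0 UMIs in control members, with an upper bound of 27.6 CPM, against 97.8 CPM with progesterone. Clca1-high cells had the same order, with Gp2, Scgb3a1 and Aqp8 summing to 60.6 CPM in the control library and 869 with progesterone. For the other genes of this paragraph, luminal cells outside the members were not set beside them.

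**Figure D5:**
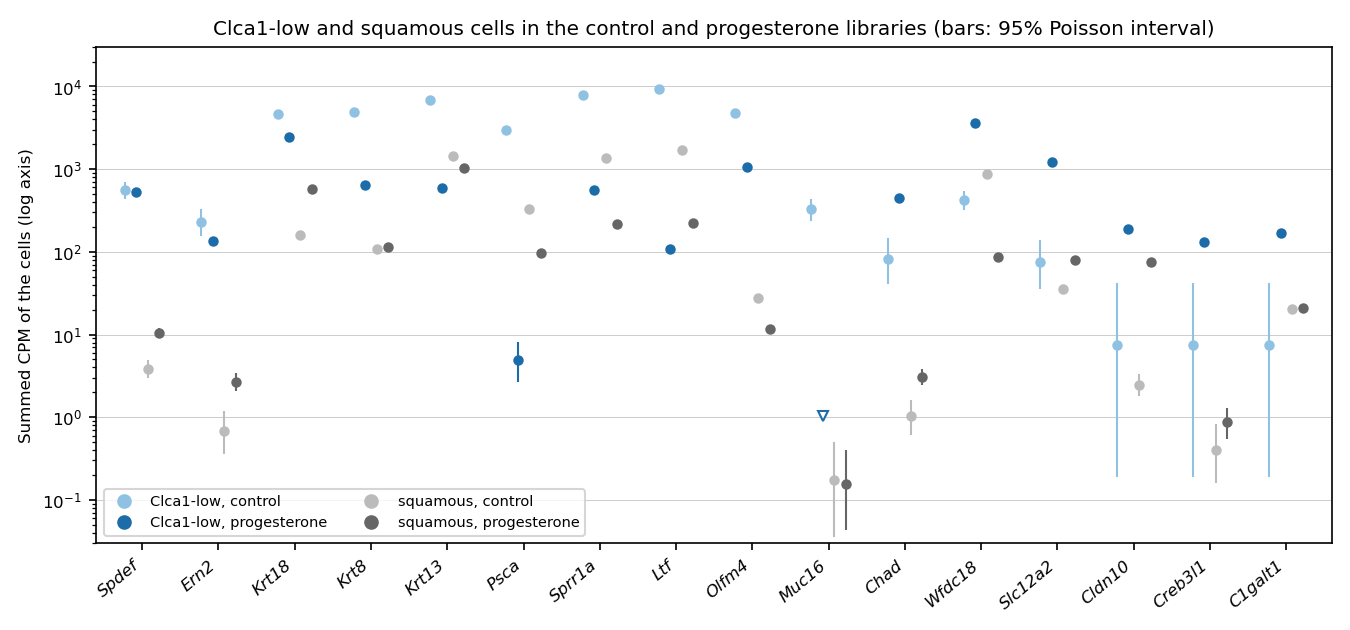
Summed CPM (log axis) of 16 genes in Clca1-low cells (blue) and squamous cells (grey) of the control (light) and progesterone (dark) library, with 95% Poisson intervals; the open triangle marks 0 UMIs, drawn at the level of 3 counts. Spdef lies close in both sets of Clca1-low cells (553 and 522 CPM), Krt18 to Muc16 lie higher in the 35 control cells and Chad to C1galt1 higher in the 549 progesterone cells.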

How the data were processed

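Cervix cells from 2 libraries were analysed, 1 control and 1 progesterone. What the authors deposited is 1 matrix per library of UMI counts, not normalized, with integer entries per the file headers. Cold protease (60 min, 4 °C) had released the cells, a 40 µm strainer removed clumps, and 3′ libraries came from the Chromium kit v3.1 of 10x Genomics with a cDNA read of 90 bp, per the labels' protocols and the series' design text. Cell Ranger 3.0.2 and build mm10 are named in the submitters' processing notes. Aligner settings and annotation were not given in the sources used here. Every deposited barcode had at least 500 UMIs. Gene positions come from GENCODE release 21 (GRCm38), which held 30934 of the 31053 identifiers.

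Kept were barcodes with 200 or more genes and a mitochondrial share of 20% or less. UMIs of the chosen cells were summed per library and scaled to CPM. Genes with 0 UMIs on 1 side were taken against a floor of 3 counts, and log2 ratios had 0.5 counts added to both sums. The 9 genes of the rule were never counted as higher or lower. The calling of genes was tried on simulated sums drawn as Poisson counts. Those sums hold no spread between cells or mice, so the trial does not bear on sums carried by 1 cell. The members, the 16 gene lists and the 17 marker classes were chosen with earlier results of these data known, and some genes are on several lists (Ltf, Muc1, Pgr, Sox9, Prom1, Spdef, Trp63, Krt13). Lists are described by counts and medians, with no test, since there was 1 library per group.

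Genes are named by these rules: the 10 highest and 10 lowest per comparison by the interval bound nearest 1, with at least 100 UMIs and 50 CPM on the higher side, without rule, mitochondrial or ribosomal genes; the given markers; and the list members with the most UMIs. Other names were chosen after their values were seen. Scrublet doublets (680 progesterone cells, 30 of them members) were left out only as 1 of 16 alternatives, with 1 more added after seeing the data. Python 3.11.15, numpy 2.4.6, scipy 1.17.1, pandas 2.3.3, scanpy 1.11.5 and matplotlib 3.10.9 were used. Intervals are 95% and do not cover variation between mice. A few genes are not reported here.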

Additional observations from a re-analysis of the deposited data

How the results depend on the processing

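The member share in the control library, 0.735%, ranged from 0.567 to 0.924% over 11 alternatives, all within its counting interval. The progesterone share of 5.95% stayed within its interval in 7 of 11. It was 6.90% with a mucus sum of at least 5, 5.28% with at least 20, 4.62% with Clca1 equal to 0 and 2.94% with at most 2 UMIs of Krt5 and Krt14, so the size of the group rests on the limits of the rule. Genes higher than in squamous cells (1949) ranged from 1354 to 2218 over 16 alternatives and stayed within 1.5 times the count in each. Genes lower (1320) ranged from 1108 to 2093, the last with mitochondrial, ribosomal and the 20 top genes left out of the scaling. Against Clca1-high cells 233 higher genes ranged from 83 to 306 and 538 lower genes from 210 to 640 over 15 alternatives, and the lowest values, 83 and 210, came from a floor of 100 UMIs, which tests fewer genes.

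Of 728 recomputed log2 ratios of named genes 697 moved by less than 1.5-fold, 30 by more with the same sign, and 1 turned: Hbb-bt against Clca1-high cells, -4.23, was 0.016 with cells of over 5 haemoglobin UMIs left out, an alternative chosen after seeing the data. Of 527 list medians 512 moved by less than 1.5-fold and 15 by more, and the interferon list median against squamous cells went from 0.27 to -0.06 under the other scaling. Of 60 shares of cells with a UMI, 37 left their interval with thinning to 4000 UMIs in place of 2000. No paired analysis was possible because each group had 1 library. Counts of genes in control members and between the libraries were planned for 50 or more members and not run for the 35 control members, whose 133780 UMIs limit every control level.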

Other observations

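Sterol synthesis genes, a list of 22 that was added after their values were seen, were higher in progesterone members than in squamous cells for 18 and lower for 0, with a median log2 ratio of 2.11. Against Clca1-high cells 11 of the 22 were higher and 0 lower, with a median of 1.00. Over all genes 15.5% were higher than in squamous cells and 2.24% higher than in Clca1-high cells, with medians of 0.11 and -0.06. Since the list was made from seen values, its counts partly describe that choice. Fdps, which makes farnesyl diphosphate, stood at 265 CPM in members, 91.1 in Clca1-high and 50.8 in squamous cells, and went from 279 to 62.7 CPM from the bin without Clca1 to the bin with 51 or more Clca1 UMIs. Hmgcs1, an early enzyme of the mevalonate pathway, was at 131, 65.1 and 53.0 CPM, and Cyp51, which removes a methyl group from lanosterol, at 135, 51.3 and 20.1. Ebp was at 182 CPM in members, 184 in Clca1-high and 44.7 in squamous cells. In control members Fdps was at 643 CPM [514 to 794].

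Interferon response genes were higher than in squamous cells for 3 of 15 (Ifit1, H2-K1 and H2-D1) and lower for 3 (Cd74, H2-Aa and H2-Ab1). Over all genes 15.5% were higher and 10.5% lower, so these counts do not set the list apart. The list median was 0.27, against 0.11 over all genes. Ifit1 stood at 87.8 CPM against 12.8, and Cd74, which guides class II molecules, at 19.1 against 81.1. Against Clca1-high cells 5 of 15 were lower, with B2m at 119 CPM against 255, while 5.18% of all genes were lower. Of 11 retinoid and prostaglandin genes 4 were higher than in squamous cells and 4 lower. Hpgd, which breaks down prostaglandins, was at 10.1 CPM against 54.0.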
